A study of Saccharomyces cerevisiae with 13 samples.

Results

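In mec1-1 yeast exposed to hydroxyurea (HU), 350 regions of DNA break signal (Break-Seq) were called across 3 peak lists. Of these, 60 carried a peak in every list. The regions were made by pooling the lists of Exp A, Exp B and the Control experiment, merging peaks that overlapped or touched, and counting the lists with a peak in each merged region. Of the 350, 60 were in 3 lists, 81 in 2 and 209 in 1. All 13 lists of the series merged in the same way gave 1462 regions. Members and classes were thus chosen by the called peak positions of these lists, so the number, width and score of regions per class are descriptions without a test.

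Break-Seq marks free DNA ends with biotinylated nucleotides in agarose plugs, captures the marked fragments and sequences them. The strains were WFA73, which carries the checkpoint mutation mec1-1, and WFA72, which has an intact MEC1 gene and is called WT here. Cells grown in YPD were arrested in G1 by the mating pheromone alpha factor (3 µM) and released into 200 mM HU for 1 h, and in some samples then recovered (R) for 1 h in fresh medium. Every sample was given sodium azide when it was taken. The 3 mec1 HU lists were each called from 1 HU library alone, without a mock or G1 library as background. A peak in them is thus local enrichment of reads and not an established break. They were set against 2 mec1 R lists (Exp A and Exp B), 2 WT HU lists (Exp C and Control) and 1 WT R list (Exp C). Each R list was called against the HU library of its own experiment. A further 4 lists of the Control experiment, 2 per strain, were read from their descriptions as HU called over mock-labelled DNA and HU called over G1, although their titles name other material. A BamHI list was made from the G1 DNA of mec1 Exp A after digestion in the tube. Peak positions cannot check which strain a library came from, and nothing says whether lists of 1 strain came from separate colonies, so the spread between them may be technical.

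HU inhibits ribonucleotide reductase, the enzyme that makes deoxynucleotides, and so slows replication forks soon after they leave their origins. Mec1, the yeast counterpart of ATR, is the sensor kinase that stabilises stalled forks and holds back late origins. Genes that face away from each other (a divergent pair) share the promoter side of their gap, genes that face each other (a convergent pair) share the terminator side, and tandem pairs lie in the same direction.

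The 3 lists differed in length, and the classes took unequal shares of them. Exp A held 138 peaks, Exp B 151 and Control 265. Regions in 3 lists took 61 peaks of each, which is 44.2% of Exp A, 40.4% of Exp B and 23.0% of Control. Regions in 2 lists took 42, 63 and 57 peaks in the same order. Regions in 1 list took 35 peaks of Exp A (25.4%), 27 of Exp B (17.9%) and 147 of Control (55.5%). Most regions in 1 list were thus called in Control alone. Regions in 2 lists were shared by Exp B and Control in 39 cases, by Exp A and Exp B in 24 and by Exp A and Control in 18. Read depth is unknown for all lists, so a longer list and a more deeply sequenced one cannot be told apart. Regions in 3 lists lay on every nuclear chromosome but chromosome I, with 7 on chromosome IV and 6 each on chromosomes X and XIV. Chromosome I held 3 regions in 2 lists and 7 in 1 list. These counts were not set against chromosome length, so they do not set a chromosome apart.

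**Figure D1:**
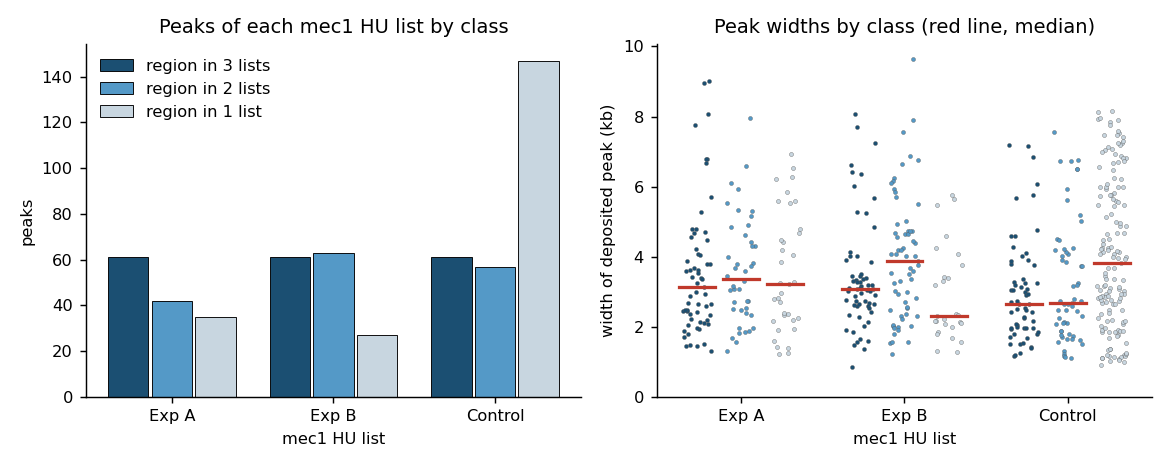
Left, number of peaks (vertical axis) of each mec1 HU list (horizontal axis) by the class of the region they fell in, with 147 of the Control peaks in regions of 1 list. Right, width in kb of each deposited peak as a point, by list and class, with red lines at the medians. The order of the medians differs between lists.

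Region width did not order the classes in the same way in each list. Merged regions had a median width of 3918 bp (range 1673 to 9024) in the class of 3 lists, 4253 bp (1615 to 9631) in the class of 2 and 3320 bp (907 to 8158) in the class of 1. Without chromosome ends and rDNA the order of the outer classes turned, with 3900 bp in the class of 3 lists and 4027 bp in the class of 1. Without the regions of Control alone the class of 1 had a median of 2809 bp. Merging lengthens a region with every list it takes in, so deposited peaks were also compared within a list. In Exp A the median peak was 3127 bp wide in regions of 3 lists, 3372 bp in regions of 2 and 3210 bp in regions of 1. In Exp B these medians were 3089, 3889 and 2312 bp. In Control they were 2654, 2683 and 3821 bp. Peaks of recurrent regions were therefore wider than those of single-list regions in Exp B and narrower in Exp A and Control. The stretch covered by every list had a median of 2112 bp in the class of 3 lists, which made up a median of 50.5% of the merged region, and 2303 bp, or 68.9%, in the class of 2.

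The authors' peak score, whose scale is not stated and which ranks peaks only within a list, was higher in the class of 3 lists. Its median there was 200.1 in Exp A, 305.7 in Exp B and 202.9 in Control. In regions of 1 list the medians were 109.1, 89.7 and 102.0. Low scores were not absent from recurrent regions. Between 14.8% (Exp B) and 19.7% (Control) of the peaks in regions of 3 lists scored under 100, against 48.6% (Exp A) to 55.6% (Exp B) in regions of 1 list. With a score of at least 100 required of every peak, 35 regions were in 3 lists in place of 60.

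The rule for joining peaks touched few regions. Of 266 overlapping pairs of peaks from different lists, 2 overlapped by under 100 bp. The smallest overlaps were 40 bp on chromosome IV at GMC1 and GIN4 (Control and Exp A, a region of 2 lists), 82 bp on chromosome XIII at the CSM3 region (Exp A and Control) and 129 bp at the left end of chromosome III (Exp B and Control). Just outside the rule, 8 gaps of up to 500 bp kept peaks in different regions. The smallest were 109 bp on chromosome IV near HXT7 (Exp A and Exp B), 121 bp on chromosome IX beside the RGI2 and SUP17 region (Control and Exp B) and 169 bp on chromosome XVI between MEP3 and KAR3 (Exp A and Control).

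The classes can also be read from the side of each list. Each mec1 HU list was left out in turn, the other lists were merged alone, and the regions that the left-out list overlapped were counted. With Exp A left out, it overlapped 60 of 99 regions present in both other lists (60.6%), against 42 of 216 present in 1 (19.4%). The share of genome tiles of the same width that Exp A overlapped was 8.12% for either. Exp B overlapped 60 of 78 (76.9%) against 63 of 245 (25.7%), with tiles at 9.01 and 8.35%. Control overlapped 59 of 83 (71.1%) against 59 of 121 (48.8%), with tiles at 15.9 and 14.6%. These shares rearrange the class counts given above, so they describe the classes list by list and no test is given for them.

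**Figure D2:**
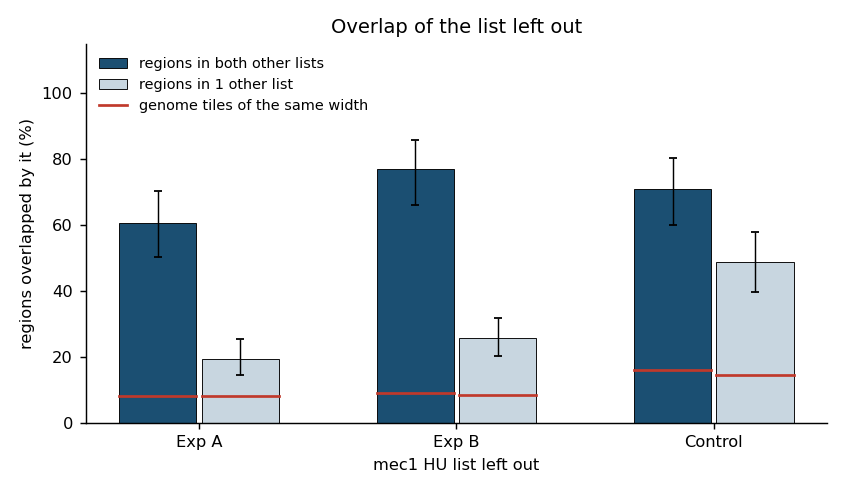
Share of regions (percent, vertical axis) overlapped by the mec1 HU list left out (horizontal axis), for regions present in both other lists (dark) and in 1 of them (light), with exact 95% binomial intervals that cover counting error only and red lines for genome tiles of the same width. Dark bars stand at 60.6 to 76.9% and light bars at 19.4 to 48.8%.

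In most regions of 3 lists the peak midpoints of the lists lay within 1000 bp of each other. The distance between the outermost peak midpoints had a median of 559 bp (range 39 to 4787). It was at most 500 bp in 25 regions and at most 1000 bp in 47 of 60. The tightest was at ARR3, an arsenite efflux gene near the right end of chromosome XVI (940099 to 942523), where the midpoints lay within 39 bp. At chromosome VII 567474 to 569146, between genes, they lay within 51 bp, and at chromosome XI 386576 to 392259 (TFA1, TCD2, GPX1, PAN3) within 63 bp. The loosest was at chromosome IX 429317 to 437394 (YPS6, PAU15, YIR042C, YIR043C), with a spread of 4787 bp and no base covered by all 3 lists. Next came chromosome XIII 363353 to 372190 (NUP116, CSM3, ERB1), with 4045 bp and a shared stretch of 82 bp, and chromosome XVI 856764 to 864825 (KRE6, GPH1, SGV1), with 2322 bp. At IX and XIII the lists thus formed a chain of peaks with little or no shared stretch. In 3 regions 1 list gave 2 peaks. These were the left end of chromosome III (1 to 5467), chromosome V 498373 to 505841 (SPT2, RAD4, GCG1, CHD1) and chromosome XIV 567676 to 572761 (YNL035C, YNL034W).

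The longest shared stretches covered whole groups of genes. On chromosome X (188327 to 197344) 7201 bp were covered by all 3 lists, over ALB1 (ribosome biogenesis), RPE1 (pentose phosphate pathway), YJL118W, PHO86 (export of a phosphate transporter from the endoplasmic reticulum), NCA3 and ASF1, a histone chaperone used in replication. Its scores were 182.1 in Exp A, 1783.6 in Exp B and 193.1 in Control. On chromosome XII (586305 to 593226) 6426 bp were shared over UCC1, YLR225C, BUR2 (a cyclin of transcription elongation) and ADY4 (a spindle pole component of meiosis). There the scores were 1863.8 in Exp A, 2844.0 in Exp B and 278.1 in Control, and midpoints lay within 118 bp. On chromosome III (191173 to 199134) 6370 bp were shared over RRP43 (an exosome subunit), RBK1 (ribokinase), the phosphate transporter gene PHO87 and the bud site gene BUD5. On chromosome VII (574479 to 583502) 5246 bp were shared over YGR039W, the mating kinase gene KSS1, BUD9 and MTE1, a gene of DNA break repair. These 4 lay inside chromosome arms.

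The next longest stretches were shorter and lay at chromosome ends as well as inside arms. At the left end of chromosome III 4030 bp were shared, and at HXK1 (hexokinase, chromosome VI 253192 to 259291) 3832 bp. OSH3 and QNS1 (chromosome VIII 242300 to 247567) shared 3717 bp, and PHO12 and IMD2 (chromosome VIII 552716 to 556650) 3430 bp. The left end of chromosome III and PHO12 with IMD2 had no peak in the mec1 list called over mock-labelled DNA. EGT2, a cell separation gene, with PFA3 and FIG4 (chromosome XIV 26001 to 32793) shared 3306 bp. At chromosome V 9809 to 14035 the shared 3097 bp held no gene, and the meiotic gene RMD6 lay beside them. KRE6, for beta-glucan synthesis (chromosome XVI), followed with 3063 bp. YJL218W, REE1 and the isomaltase gene IMA5 (chromosome X 20905 to 25650) shared 3045 bp, and the magnesium transporter gene ALR2 (chromosome VI 30544 to 35096) 3016 bp. The remaining 7 of the 20 longest had 2434 to 2893 bp and held ZUO1 with BIO2, ICL1, JIP5, COS8 with ARN2, DAN4, SPS1 with AGE1, and YDR124W with ECM18 and SWF1. Of the 20, 17 overlapped the mec1 R list of Exp A (15.9% of genome tiles of their median width did), 11 that of Exp B (tiles 16.7%), 5 the WT HU list of Exp C (tiles 8.36%) and 1, PHO12 with IMD2, that of WT Control as well (tiles 2.79%). Over all 60 regions in 3 lists these counts were 51, 30, 9 and 2.

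**Figure D3:**
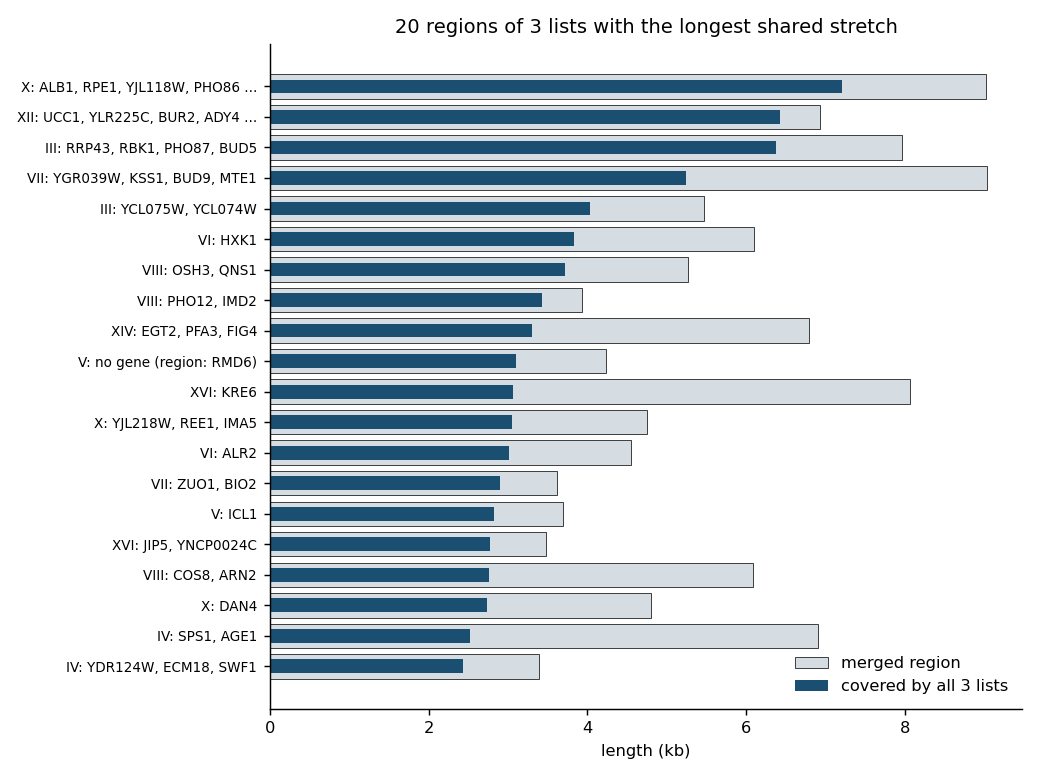
Length in kb (horizontal axis) of the 20 regions in 3 lists with the longest stretch covered by all of them, labelled by chromosome and by genes of that stretch (the first 4). Pale bars show the merged region and dark bars the shared stretch, which runs up to 7201 bp at the ASF1 region and is much shorter than the merged region at KRE6.

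Recurrent regions, those in 3 lists, overlapped 179 of 6431 nuclear genes (2.78%), regions in 2 lists 245 (3.81%) and regions in 1 list 573 (8.91%). Genes per region averaged 2.98 in the class of 3 lists (median 3, range 0 to 8), 3.04 in the class of 2 and 2.77 in the class of 1. Per kb of region these were 0.664, 0.690 and 0.721 genes. Genome tiles of the classes' median widths held 0.725 genes per kb for the class of 3 lists, 0.705 for the class of 2 and 0.761 for the class of 1. With genes and widths summed over a class, regions of every class held fewer genes per kb than their tiles. As means over regions the values were 0.671 in the class of 3 lists, below its tiles, and 0.797 in the class of 1, above its tiles. The tile value also fell with tile width, and regions of a class vary in width. The order against tiles thus depended on the measure and is not read as a trait of a class. No gene was overlapped by 1 recurrent region, at chromosome VII 567474, and by 1 region in 1 list.

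A gene inside a region of 3 lists was not always reached by 3 lists. Of the 179 genes, 111 were overlapped by peaks of all lists (1.73% of nuclear genes), 35 by peaks of 2 and 33 by a peak of 1. The glycogen phosphorylase gene GPH1 and the kinase gene SGV1 belong to the KRE6 region, but each was reached by 1 list, GPH1 by Exp A. The S phase inhibitor gene SIC1, beside GAL2 on chromosome XII, the hexose transporter gene HXT9, beside IMA5, and the mannoprotein gene DAN1, beside DAN4, were also reached by Exp A alone. GAL2, IMA5 and DAN4 themselves were reached by all 3 lists. In the class of 2 lists, 180 of 245 genes were reached by both lists.

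Gene lists drawn up for this material held 403 genes in 10 groups, and 27 of these genes lay in regions of 3 lists. Peaks of all 3 lists reached 17 of them, peaks of 2 lists 4, and a peak of 1 list 6. Of all nuclear genes, 2.78% lay in regions of 3 lists, 3.81% in regions of 2 and 8.91% in regions of 1. Beside these, the shares of the groups below describe small counts and were not tested. At such shares, the absence of a group from a class does not set the group apart.

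Genes for nutrient uptake were met in all classes. Of 57 transporter genes, 5 lay in regions of 3 lists, 6 in regions of 2 and 7 in regions of 1. All 3 lists reached GAL2 (galactose), MAL31 (maltose) and PHO87 (phosphate), while the amino acid permease gene AGP3 was reached by Exp A and Control and HXT9 by Exp A. Of 29 iron regulon genes, 3 were in regions of 3 lists and all were reached by every list. They were FIT1, for a cell wall mannoprotein that retains siderophores, and the siderophore transporter genes ARN2 and ENB1. No iron gene lay in a region of 2 lists, where 3.81% of all genes lay. FIT2, FIT3 and FRE3 lay together in 1 region of Control alone, and TIS11 in another.

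Of 25 glycolysis genes, HXK1 and the glyceraldehyde-3-phosphate dehydrogenase gene TDH1 were in regions of 3 lists, HXK1 by all lists and TDH1 by Exp B and Control. TDH3, ENO1 and PYK2 were in regions of 2. Of 22 glycogen and trehalose genes GPH1 was the 1 member in a region of 3 lists. Of 46 cell wall genes, 5 lay in regions of 3 lists. DAN4, FIG2 (mating), EGT2 and KRE6 were reached by all lists and DAN1 by 1. Of 32 pheromone response genes, KSS1 and the a-factor gene MFA2 were in regions of 3 lists and reached by all, none was in a region of 2, and FUS3, KAR3 and KAR4 were in regions of 1.

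Of 59 genes of replication, the G1/S switch and cohesion, 3 lay in regions of 3 lists (5.08%, beside 2.78% of all genes), 1 in a region of 2 and 5 in regions of 1. The cohesin subunit gene SMC3 was reached by all lists, the fork protection gene CSM3 by Exp B and Control, and SIC1 by Exp A. CDC6, MCM3, RFA1, ECO1 and TOF1, the partner of CSM3, lay in regions of 1 list. Of 25 checkpoint and nucleotide supply genes, none lay in a region of 3 lists, where 2.78% of all genes lay. LCD1, also called DDC2, which codes for the partner of Mec1, was in a region of 2 lists (Exp A and Control), and MEC1 and RAD53 were in regions of Exp B alone. Of 55 repair genes, RAD4 was in a region of 3 lists and was reached by all. RAD7, RAD57, MSH6 and REV1 were in regions of 2.

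Subtelomeric gene families split by list. Of 53 genes, 5 lay in regions of 3 lists, 3 in regions of 2 and 18 in regions of 1. COS8 and IMA5 were reached by all lists and the seripauperin gene PAU15 by Exp B and Control. PAU20 and YRF1-2, a helicase gene of the Y′ element, were reached by Control alone although their regions were in 3 lists. All 18 in regions of 1 list had a peak of Control alone, among them 7 PAU genes, 5 YRF1 genes and the thiamine genes THI5, THI11, THI12 and THI13. Many members of these families are near-identical copies, and reads from them can be placed on another copy. The treatment of reads with several matches is not given in the sources used here. Submitters' processing notes name Bowtie2 and BWA for Exp A and Exp B and BWA for Control, and the part of alignment in these calls was not tested.

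Chromosome ends, taken as the outer 20 kb, took a larger share of regions in 3 lists than of genome positions, and about the genome's share of regions in 2 lists. Midpoints lay there in 15 of 60 regions in 3 lists (25.0%, exact 95% binomial interval 14.7 to 37.9%), against 5.31% of all genome positions. They lay there in 5 of 81 regions in 2 lists (6.17%, 2.03 to 13.8%). Of the regions in 1 list, 30 of 147 in Control alone were at ends (20.4%), 2 of 35 in Exp A alone (5.71%) and 2 of 27 in Exp B alone (7.41%). Within each list, 24.6% of the peaks in regions of 3 lists were at ends, against 5.71% in Exp A, 7.41% in Exp B and 20.4% in Control for regions of 1 list. The share was higher in the class of 3 lists in 3 of 3 lists, by a mean of 13.4 points. The exact permutation test over lists (two-sided) gave p = 0.25, the smallest possible. Peaks of regions in 3 lists came from the same 60 regions in every list. The differences share these regions, so they are not independent and their common sign is not replicated support. The difference was 18.9 points in Exp A, 17.2 in Exp B and 4.18 in Control. Regions made without Exp A gave a mean difference of 5.04 points and those made without Control 7.38, and the outer 10 kb in place of 20 gave 3.11.

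Members of the subtelomeric families (COS8, PAU15, PAU20 and YRF1-2) lay in 4 of the 15 recurrent end regions. The 15 were TYC1, MAL33 and MAL31 on the right of chromosome II (798962 to 803835), the left end of chromosome III, YCR102C on its right (303749 to 307563), RMD6 and the YRF1-2 region (568272 to 571793) on chromosome V, and AGP3 with the aquaporin gene AQY3 (17925 to 21688) and HXK1 on chromosome VI. Chromosome VIII gave COS8 with ARN2 (3548 to 9629) and PHO12 with IMD2, chromosome IX PAU15, and chromosome XI SRY1 (15884 to 17671). PDR18, a transporter gene, lay on chromosome XIV (762750 to 765556), PAU20 with YOL162W and YOL163W (8781 to 11847) and ENB1 with CSS3 (16018 to 20058) on chromosome XV, and ARR3 on chromosome XVI. The 4 regions of Control alone with the highest scores were at ends as well. They were the left end of chromosome II (1 to 2654, score 938.4), PAU14 on chromosome IX (5967 to 9002), VTH1 with IMA3 on chromosome IX (14948 to 17826) and PAU1 on chromosome X (5847 to 9030).

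Midpoints of recurrent regions lay between genes more often than those of single-list regions. They fell inside a gene in 31 of 60 regions in 3 lists (51.7%), 47 of 81 in 2 lists (58.0%) and 136 of 209 in 1 list (65.1%), against 73.6% of genome positions. They fell in a divergent gap in 12 of 60 (20%), 13 of 81 (16.0%) and 15 of 209 (7.18%), against 9.01% of positions. Tandem gaps took 21.7, 16.0 and 18.7%, against 13.2% of positions, and convergent gaps 6.67, 9.88 and 8.13%, against 3.98%. The remaining 2 regions, both in 1 list, lay beyond the last gene, as 0.168% of positions do.

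**Figure D4:**
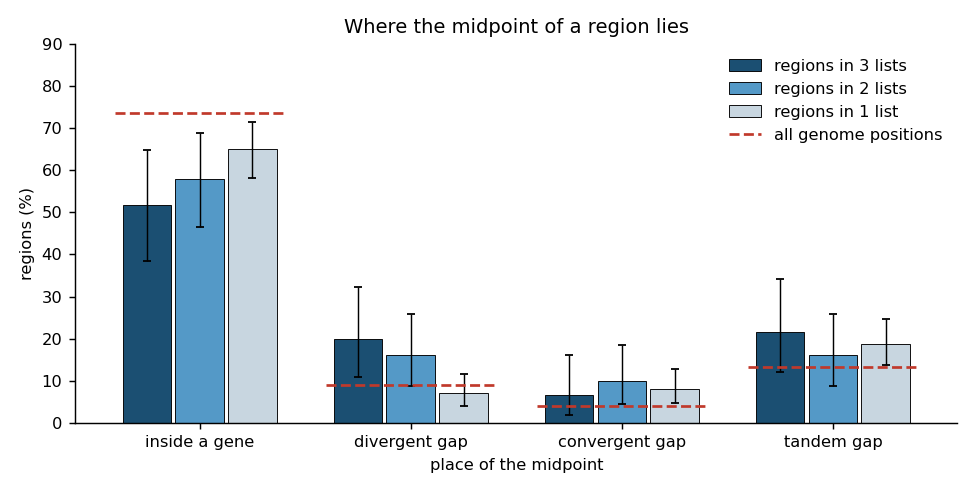
Share of regions (percent, vertical axis) whose midpoint lies inside a gene or in a divergent, convergent or tandem gap (horizontal axis), for regions in 3, 2 and 1 lists, with exact 95% binomial intervals (counting error only) and dashed red lines for all genome positions. The share inside a gene is 51.7% in the class of 3 lists and 65.1% in the class of 1, and the share in a divergent gap 20% and 7.18%.

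Taken peak by peak within each list, the inside-gene difference had the same sign in every list. Peaks of regions in 3 lists came from the same regions in each list, by the rule that made the classes. The differences below are thus not independent between lists, and a common sign is not replicated support. The share of peak midpoints inside a gene was 48.1% ± 3.79 in regions of 3 lists and 68.9% ± 6.33 in regions of 1 (SD, n = 3 lists). The SD in regions of 3 lists is over the same regions in each list, so it is not a spread between replicates. The difference, regions of 3 lists minus regions of 1, was -21.8 points in Exp A, -24.5 in Exp B and -16.0 in Control. The exact permutation test over lists (two-sided) gave p = 0.25, the smallest possible. Divergent gaps took 16.4% of peaks in regions of 3 lists in each list. In regions of 1 list they took 4.41% ± 4.80, and the differences were 16.4, 12.7 and 6.87 points for Exp A, Exp B and Control (exact permutation p = 0.25, the smallest possible). For convergent gaps the difference was -6.09 points in Exp A, 13.1 in Exp B and 3.31 in Control, with no common sign (exact permutation p = 0.75). For tandem gaps the mean difference was 6.98 points, positive in 3 of 3 lists (exact permutation p = 0.25).

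The midpoints of regions were also counted apart for chromosome ends and for the rest of the chromosomes. At the ends they lay inside a gene in 4 of 15 regions in 3 lists (26.7%) and 11 of 34 in 1 list (32.4%). In divergent gaps at the ends the counts were 5 of 15 (33.3%) and 4 of 34 (11.8%). Away from the ends, midpoints lay inside a gene in 27 of 45 regions in 3 lists (60.0%, exact 95% interval 44.3 to 74.3%) and in 125 of 175 regions in 1 list (71.4%, 64.1 to 78.0%). In divergent gaps the counts away from the ends were 7 of 45 (15.6%, 6.49 to 29.5%) and 11 of 175 (6.29%, 3.18 to 10.97%). The intervals overlapped in both cases. Among the 12 recurrent regions with a midpoint in a divergent gap were PRE7, ERD2, MIN6 and URA7 on chromosome II (141616 to 145154), PPX1 and SMN1 on chromosome VIII (500036 to 503139), YMR082C on chromosome XIII (431855 to 434767), PPQ1 (209507 to 211790) and JIP5 (879463 to 882945) on chromosome XVI, and the region without a gene on chromosome VII. The 4 in convergent gaps were AGP3 with AQY3 and MIL1 with RIM15 (67200 to 70288) on chromosome VI, SRY1 on chromosome XI, and YCT1 on chromosome XII (30339 to 34388).

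The gene pairs that a region spans, as opposed to the gap under its midpoint, were near the genome's own proportions. The recurrent regions touched 151 gaps, of which 29.1% were convergent, 25.8% divergent and 45.0% tandem. In regions of 2 lists the shares of 220 gaps were 25.5, 24.5 and 50.0%, and in regions of 1 list those of 472 gaps were 24.8, 24.6 and 50.6%. All 6239 neighbouring pairs with a gap gave 25.8, 26 and 48.2%. At least 1 convergent gap was touched by 60.0% of regions in 3 lists (tiles of the same width 51.5%), 61.7% of regions in 2 (56.1%) and 49.8% of regions in 1 (45.3%). For divergent gaps these were 51.7% (tiles 55.4%), 60.5% (59%) and 46.4% (49.7%), and for tandem gaps 71.7% (72.7%), 77.8% (76.1%) and 71.3% (67.1%).

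Transfer RNA genes, where forks are known to pause, were overlapped most often by regions in 2 lists. The counts were 8 of 60 regions in 3 lists (13.3%, tiles 8.53%), 19 of 81 in 2 (23.5%, tiles 9.37%) and 29 of 209 in 1 (13.9%, tiles 7.19%). Of the 29, 27 were regions of Control alone, 1 of Exp A alone and 1 of Exp B alone. Within lists the share of peaks in regions of 3 lists minus that in regions of 1 was 8.62 points in Exp A, 6.13 in Exp B and -10.2 in Control (exact permutation p = 1). No snoRNA gene lay in a region of 3 or of 2 lists, and 4 of 76 (5.26%) lay in regions of 1. Beside the 2.78, 3.81 and 8.91% of all genes in the classes, these counts are too small to set snoRNA genes apart.

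Peaks of the mec1 R lists overlapped regions in 3 lists more often than regions in 1 list. Each R list was called over the HU library of its own experiment. An overlap therefore means signal above that library, not a repeat of its call. The HU libraries of Exp A and Exp B also helped to set the classes, so the R lists are not independent of them. The mec1 R list of Exp A overlapped 51 of 60 regions in 3 lists (85.0%, exact 95% interval 73.4 to 92.9%), 53 of 81 in 2 (65.4%, 54.0 to 75.7%) and 53 of 209 in 1 (25.4%, 19.6 to 31.8%). Tiles of the same widths were overlapped in 14, 14.4 and 13.2%. The R list of Exp B overlapped 30 of 60 (50.0%, 36.8 to 63.2%), 38 of 81 (46.9%, 35.7 to 58.3%) and 55 of 209 (26.3%, 20.5 to 32.8%), with tiles at 14.7, 15.4 and 13.8%. In Exp B the classes of 3 and 2 lists were within each other's intervals. Both R lists overlapped 27 of the 60 regions in 3 lists (45%), 27 of the 81 in 2 (33.3%) and 17 of the 209 in 1 (8.13%). Tiles overlapped by both R lists were not counted. As shares of the R lists, regions in 3 lists met 25.8% of the 198 peaks of Exp A and 14.8% of the 209 of Exp B. The more numerous regions in 2 lists met 27.3 and 18.7%, and those in 1 list 27.3 and 26.3%. Without the Control list, the mean difference between regions in every list and regions in 1 was 19.8 points, against 41.7 with it.

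Among single-list regions, recovery was read against the HU library of its own experiment. The R list of Exp A overlapped 18 of 27 regions of Exp B alone (66.7%, exact 95% interval 46.0 to 83.5%) and 10 of 35 of Exp A alone (28.6%, 14.6 to 46.3%). The R list of Exp B overlapped 15 of 35 regions of Exp A alone (42.9%, 26.3 to 60.6%) and 7 of 27 of Exp B alone (25.9%, 11.1 to 46.3%). Each R list thus met the regions of the other experiment more often than those of its own, where the HU library it was called against had a peak. The intervals overlapped slightly for the R list of Exp A and widely for that of Exp B. Regions of Control alone were overlapped in 17.0% by the R list of Exp A and in 22.4% by that of Exp B.

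**Figure D5:**
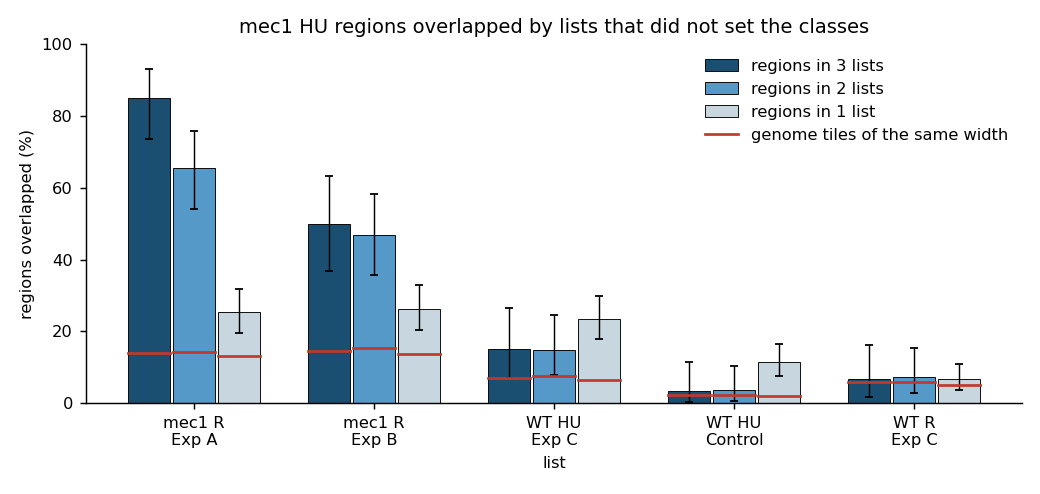
Share of regions (percent, vertical axis) in 3, 2 and 1 mec1 HU lists that were overlapped by the mec1 R, WT HU and WT R lists (horizontal axis), with exact 95% binomial intervals (counting error only) and red lines for genome tiles of each class's median width. The class of 3 lists stands at 85.0 and 50.0% in the mec1 R lists and at 15.0 and 3.33% in the WT HU lists.

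In WT HU lists the class of 1 list had the highest share, with intervals that overlapped those of the class of 3. The WT HU list of Exp C overlapped 9 of 60 regions in 3 lists (15.0%, exact 95% interval 7.10 to 26.6%), 12 of 81 in 2 (14.8%, 7.90 to 24.4%) and 49 of 209 in 1 (23.4%, 17.9 to 29.8%), with tiles at 7.04, 7.47 and 6.56%. The WT HU list of Control overlapped 2 of 60 (3.33%), 3 of 81 (3.70%) and 24 of 209 (11.5%), with tiles at 2.3, 2.36 and 2%. This order rested on the regions of Control alone, of which WT Exp C overlapped 41 of 147 (27.9%) and WT Control 23 (15.6%). Among the other 62 regions in 1 list, WT Exp C overlapped 8 (12.9%) and WT Control 1 (1.61%). The mean difference over the 2 WT lists, class of 3 lists minus class of 1, was -8.30 points with the regions of Control alone and 1.91 points without them. The WT R list overlapped 6.67, 7.41 and 6.70% of the classes, with tiles at 6.06, 6.04 and 5.13%.

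Wide and narrow regions of Control alone lay in different places, when split at a width of 4 kb that was chosen after the values were seen. The 70 wide ones overlapped WT Exp C in 32 cases (45.7%, exact 95% interval 33.7 to 58.1%, tiles 8.55%), lay at a chromosome end in 1 case and overlapped a tRNA gene in 17. The 77 narrow ones overlapped WT Exp C in 9 cases (11.7%, tiles 5.94%), lay at an end in 29 (37.7%) and overlapped a tRNA gene in 10. WT Control did not show the same contrast, with 13 of the wide ones (18.6%, tiles 3.05%) and 10 of the narrow ones (13.0%, tiles 1.69%). The mec1 R list of Exp A overlapped 7 of the wide ones (10.0%, tiles 17.1%) and that of Exp B 14 (20%, tiles 17.7%). Of the narrow ones they overlapped 18 (23.4%, tiles 11.7%) and 19 (24.7%, tiles 12.4%). Recurrent regions of 4 kb or more overlapped WT Exp C in 7 of 29 cases (24.1%, tiles 8.15%) and the R list of Exp A in 24 (82.8%, tiles 16.5%). Those under 4 kb overlapped WT Exp C in 2 of 31 cases (6.45%, tiles 6.57%) and the R list of Exp A in 27 (87.1%, tiles 12.9%). The R list of Exp B overlapped 19 of the 29 (65.5%, tiles 17.1%) and 11 of the 31 (35.5%, tiles 13.7%).

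The lists called over mock-labelled DNA and over G1 share the HU library of Control, so they do not repeat its calls independently. Of the 265 peaks of Control, 230 had the same coordinates in the list over mock and 260 in the list over G1. The list over mock overlapped 49 of the 60 regions in 3 lists, and the list over G1 all 60. Among the regions without a peak over mock were the left end of chromosome III, PHO12 with IMD2, and FIT1. The region without a gene on chromosome VII had none over mock either. For the 24 regions of Exp A and Exp B that Control alone did not call, the list over mock overlapped 7 and the list over G1 8. Tiles were overlapped in 28 and 30.4% at the width of the class of 3 lists and in 28.8 and 31.5% at that of the class of 2. The WT list over mock met 1 of the 60 regions in 3 lists (tiles 3.08%), 2 of the 81 in 2 (3.22%) and 28 of the 209 in 1 (2.74%). The WT list over G1 met 2 (3.99%), 2 (4.33%) and 34 (3.62%). DNA cut with BamHI gave peaks over 53.3, 51.9 and 41.6% of the classes, with tiles at 48.3, 51.1 and 44.6%.

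Regions in 2 lists with the longest shared stretch differed by pair. For Exp A and Exp B it was chromosome VII 876665 to 883260, with 6238 bp over the cell wall gene CRH1, the histidine permease gene HIP1 and TDH3, followed by chromosome XIII 550943 to 557115 (RPS16A, FDO1, NDE1), chromosome XVI 681332 to 688890 (UBA3 to MED1) and chromosome IV 1146519 to 1151360 (FCF1). For Exp A and Control it was chromosome IV 453148 to 461106, with 6490 bp over RAD57, MAF1 and SOK1, followed by chromosome X 532188 to 538302 (RAD7, BFA1, KCH1), where the midpoints lay 1 bp apart. Chromosome II 197799 to 202382 (RRN6, FMT1) and chromosome IX 205451 to 210601 (YIL082W-A) came next, and the last was called in both WT HU lists. For Exp B and Control it was chromosome XI 458275 to 465179, with 6600 bp over TOF2 and PRY2, followed by chromosome XVI 554018 to 560811 (HAT1, CIT3), chromosome IX 98885 to 105649 (CSM2, FKH1, ASG1) and chromosome XII 73767 to 80651 (GPI13).

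Single-list regions of Exp A and Exp B with the highest scores lay at single genes or small groups inside the arms. For Exp A these were PDR3, a drug resistance regulator gene (chromosome II 217542 to 220751, score 598.3), RPL12B with RAD30 (chromosome IV 1300823 to 1305613), PUB1 (chromosome XIV 601963 to 605212) and SPB4 (chromosome VI 143739 to 145935). For Exp B they were AIR1 with THS1 (chromosome IX 210819 to 215054, score 523.6), ECM21 (chromosome II 25549 to 29622), SWH1 (chromosome I 195669 to 198870) and ECM4 (chromosome XI 581292 to 583603). Of these 8, the R list of the other experiment overlapped 6, all but PUB1 of Exp A and AIR1 of Exp B. Over all regions of Exp A alone the R list of Exp B overlapped 42.9% (tiles at the width of the class of 1 list 13.8%). Over all regions of Exp B alone the R list of Exp A overlapped 66.7% (tiles 13.2%). So few regions do not set those with high scores apart.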

How the data were processed

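The 13 deposited peak lists give a position and a score per peak. For Exp A, B and C the submitters' processing notes name sacCer3, Bowtie2, BWA 0.6.2 and MACS 1.4.1. For Control they name sacCer3 and BWA, and MACS stands in the labels with no version. The score is the authors' own value, its scale is not stated, and the deposited files hold no read counts, so depth is unknown. Starts were made 1-based. Genes and symbols came from the RefSeq R64 table, with strand read from the W or C of the locus tag (1 gene has neither). Chromosome lengths were taken as the furthest gene or peak end (12.059 Mb). No sequence is shown.

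Peaks were pooled and merged from 1 shared or touching base, and overlap meant at least 1 bp. Classes were set beside genome tiles of their median width to the nearest 100 bp. Exact Clopper-Pearson 95% intervals cover counting error only. Within-list differences were tested by exact sign-flip permutation over lists. With 3 lists this test gives 0.25 whenever the 3 differences share a sign, whatever their size. These differences share the regions in 3 lists, so they are not independent between lists. The planned test of left-out lists is not given, since its shares rearrange the class counts. Regions were named by shared length (20 of 3 lists, 4 per pair), score (4 per list) and membership of 10 gene lists. Some regions named for their midpoint, place or spread were chosen after their values were seen. Members, lists and rules were chosen with earlier results of these data known. Merging and classing were tested on simulated peaks. Python 3.11.15, pandas 2.3.3 and scipy 1.17.1 were used.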

Additional observations from a re-analysis of the deposited data

How the results depend on the processing

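Depth is unknown, and 3 lists cannot give an exact p under 0.25, so no test here can pass 0.05. No paired analysis was possible because no test compared groups of lists, and the within-list differences are already paired by list. Of 103 alternative values, 72 were classed as close to the reported one, 24 moved and 7 changed sign. Close means within 1.5 times for counts of regions, within 1 SD over lists for other values, within the 95% interval for gene pair shares, and of the same sign for within-list and left-out list differences. A value classed as close can still differ much. The chromosome end difference was 13.4 points and 3.11 for the outer 10 kb. The mec1 recovery difference was 41.7 points and 19.8 without Control. Both alternatives were classed as close. The cause of the changes was not tested.

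Regions in every list numbered 35 with a score of at least 100 and 78 to 99 without 1 list, and regions in 1 list 121 to 245 without 1 list. The median width of regions in every list was 2112 bp for the shared stretch, 2957 bp as the mean of the list medians of deposited peaks and 3483 to 3875 bp without 1 list. Genes per region were 1.6 in every list and 1.38 in 1 list when counted wholly inside, 2.28 and 2.00 when overlapped over most of their length, 0.671 and 0.797 per kb as means over regions, and 2.77 in every list for protein-coding genes.

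The inside-gene difference, every list minus 1 list, was -13.4 points over regions, -19.3 at the midpoint of the shared stretch, -20.8 over deposited peaks and -13.0 to -7.79 without 1 list. The divergent difference was 12.8 points over regions, 6.38 at the shared stretch and 5.37 to 10.5 without 1 list. The convergent difference, -1.47 points over regions, changed sign to 0.199 with the mean of peak midpoints, 5.43 at the shared stretch and 3.45 over deposited peaks, and was 0.210 without Exp A and 2.58 without Control (range -0.00523 to 2.58 without 1 list). The tRNA difference was 1.53 points, and -4.54 to 2.99 without 1 list, with the negative value without Exp B. The chromosome end difference was 5.04 to 12.5 points without 1 list, and 3.11 for 10 kb and 20.7 for 30 kb.

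The WT HU difference was -8.30 points, -11.0 without chromosome ends and rDNA, -1.12 with a stricter overlap, -1.71 with regions reduced to 1000 bp, -8.27 to -1.26 without 1 list and 1.91 without regions of Control alone, an alternative chosen after seeing the data. The mec1 recovery difference was 19.8 to 36.7 points without 1 list. The left-out list difference was 31.1 to 38.2 points under its alternatives.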
